A study of Homo sapiens with 4 samples.

Results

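The genes described here are 41 markers of columnar, gastric and intestinal epithelium, from transcription factors of the gut to products of gastric, goblet and absorptive cells, measured in OE33 cells with and without knockdown of ARID1A. They were chosen by name, with earlier results of these data known. For each gene 1 probe set was taken, the brightest on average of those annotated to no other gene. All 41 had one, out of 18132 genes with such a probe set, and they had 78 one-gene probe sets out of 49293 probe sets tested. OE33 cells are a human line grown from oesophageal adenocarcinoma. The knockdown group received 50 nM of an siRNA pool against ARID1A (ON-TARGETplus SMARTpool) and the mock group 50 nM of a pool without a target (ON-TARGETplus Non-targeting Pool). Both groups were transfected 24 hours after plating and harvested 48 hours after transfection, with 2 biological replicates and so 2 Affymetrix Human PrimeView arrays in each. Both groups are the same line, neither is normal epithelium, and with 1 pool the effects of its single siRNAs cannot be told apart.

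ARID1A encodes a subunit of the SWI/SNF chromatin remodelling complex, which shifts nucleosomes and so opens regulatory DNA. Adenocarcinoma of the oesophagus commonly arises in Barrett's oesophagus, where the squamous lining is replaced by columnar epithelium with a mixture of gastric and intestinal features. The homeobox factors CDX1 and CDX2 drive intestinal identity, ATOH1 and SPDEF drive the goblet lineage, and trefoil factors, gastrokines and pepsinogen mark gastric mucosa. Villin, sucrase-isomaltase and the apolipoproteins mark absorptive enterocytes.

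Most of these markers had signals no brighter than those of genes of unrelated tissues, and HOPX was the 1 marker of the 41 that passed the test between knockdown and mock cells. Values are log2 signals after RMA normalization, a difference of 1 being a doubling, and "passed" means a Benjamini-Hochberg adjusted p under 0.05 in limma over all 49293 probe sets. Of all genes 0.403% passed, and of all probe sets 156, or 0.316%. ARID1A itself was at 7.53 and 7.53 in the knockdown arrays, against 9.28 and 9.33 in the mock arrays (log2 difference -1.78, SE 0.0718, adjusted p = 0.0218). Array medians ran from 5.89 to 5.93. The epithelial markers KRT8, KRT18, KRT19, EPCAM and CDH1 had mean signals of 12.07 to 14.57, above the 98th percentile of probe sets, and none of the 5 passed. The 3′ over 5′ signal of the beta-actin control, a measure of RNA integrity, was 1.21 and 1.10 log2 units in the knockdown arrays, against 1.04 and 0.995 in the mock arrays. That of the GAPDH control overlapped between groups, at 0.201 and 0.215 in the knockdown arrays, against 0.199 and 0.211 in the mock arrays. The part of RNA integrity in the results below was not tested.

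Upstream sequences are shown for the marker that passed the test, HOPX, which has a pair of start sites in the table used, and for 4 others whose signals are set out below. AGR2 and its neighbour AGR3 are a bright and a dim member of 1 gene pair, SI is a textbook target of CDX2, and DPP4 was dimmer in the knockdown arrays. Each is the 250 bases before the start site in RefSeq, build GRCh38.p14, written 5′ to 3′ along the gene. Capitals mark every match, on either strand, to 6 short motifs. The core TTTATG and its variant TTTATT belong to sites for CDX proteins. The TATA box was searched as TATAAA, the site of AP-1 as TGANTCA, that of GATA factors as AGATAA, and the GC box, a site of SP and KLF factors, as GGGCGG.
HOPX, first start site (chr4:56681297-56681546, minus strand): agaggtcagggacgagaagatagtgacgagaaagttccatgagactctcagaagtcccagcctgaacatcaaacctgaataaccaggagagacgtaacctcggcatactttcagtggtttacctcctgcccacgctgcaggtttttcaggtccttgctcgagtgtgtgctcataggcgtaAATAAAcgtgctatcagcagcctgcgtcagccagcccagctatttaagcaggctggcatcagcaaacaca
HOPX, second start site (chr4:56656518-56656767, minus strand): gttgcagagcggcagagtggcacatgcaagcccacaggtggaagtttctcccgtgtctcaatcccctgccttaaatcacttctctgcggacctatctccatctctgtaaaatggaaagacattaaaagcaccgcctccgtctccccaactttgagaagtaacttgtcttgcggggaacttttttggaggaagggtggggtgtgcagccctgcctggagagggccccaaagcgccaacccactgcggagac
AGR2 (chr7:16805000-16805249, minus strand): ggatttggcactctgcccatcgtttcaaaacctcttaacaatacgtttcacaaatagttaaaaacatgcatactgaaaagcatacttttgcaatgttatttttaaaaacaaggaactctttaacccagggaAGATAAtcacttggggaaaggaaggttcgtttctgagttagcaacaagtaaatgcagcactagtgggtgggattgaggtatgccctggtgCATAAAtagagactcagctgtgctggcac
AGR3 (chr7:16881984-16882233, minus strand): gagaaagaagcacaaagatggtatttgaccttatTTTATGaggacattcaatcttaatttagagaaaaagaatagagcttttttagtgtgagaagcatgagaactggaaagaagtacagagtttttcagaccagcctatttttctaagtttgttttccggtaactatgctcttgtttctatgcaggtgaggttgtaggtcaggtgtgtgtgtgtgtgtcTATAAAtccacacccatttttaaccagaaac
SI (chr3:165078497-165078746, minus strand): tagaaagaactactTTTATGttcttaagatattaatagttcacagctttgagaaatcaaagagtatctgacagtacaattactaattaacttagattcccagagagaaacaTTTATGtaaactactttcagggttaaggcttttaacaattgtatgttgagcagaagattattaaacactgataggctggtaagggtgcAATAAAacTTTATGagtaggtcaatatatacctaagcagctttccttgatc
DPP4 (chr2:162074216-162074465, minus strand): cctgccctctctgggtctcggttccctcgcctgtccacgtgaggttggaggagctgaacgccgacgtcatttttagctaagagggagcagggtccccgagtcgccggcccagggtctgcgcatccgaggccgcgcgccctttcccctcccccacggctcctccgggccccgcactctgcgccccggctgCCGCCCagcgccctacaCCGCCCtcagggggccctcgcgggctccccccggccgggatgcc
SI had 4 matches, 3 of them to TTTATG. HOPX had 1, a TTTATT that began 70 bases before its first start site, and none before its second. AGR2 and AGR3 each held a TTTATG, which lay 29 bases before the start in AGR2 and 216 bases before it in AGR3, and AGR3 also held a TATAAA 31 bases before its start. DPP4 held 2 GC boxes in a window of 73.6% G and C, against 31.6% in SI.

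Promoters were at hand for 28 of the 41 markers, 31 windows in all. TTTATG stood in 6 of the 31 (19.4%), those of AGR2, AGR3, FABP1, GKN1, REG4 and SI, against 9.64% of all 35116 promoters in the table. TTTATT stood in 5 of 31 (16.1%), against 16.04% of all. TATAAA stood in 7 of 31 (22.6%), against 10.7% of all, and AGATAA in 6 of 31 (19.4%), against 9.17%. TGANTCA stood in 3 of 31 (9.68%), against 6.57% of all. The GC box stood in 4 of 31 (12.9%), those of ALPI, ANPEP, ATP4A and DPP4, against 42.6% of all. Both CDX cores and the reverse strand of the TATA box differ from each other at 1 base, and a stretch of DNA may hold overlapping matches. A match of letters is a description and does not show that a factor binds there.

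The signals themselves separated a small group of markers from the rest. As a guide to background, 19 genes of fibroblasts, leukocytes, endothelium, muscle, red cells and nerve, none of which belongs to an epithelial line, had mean signals of 2.81 to 6.44. Of the 41 markers, 33 lay within that range and 8 above it, namely AGR2, CDX2, PDX1, SPDEF, DPP4, HOPX, APOA1 and CDHR5. The same 8 were the markers above the median of all probe sets. These places rest on the brightest probe set of each gene, and dimmer ones of the same gene can lie within the range. In PDX1, DPP4, HOPX and APOA1 the brightest has probes that can match other sequences. The probe sets of PDX1 and DPP4 without such probes had means within the range. HOPX and APOA1 had no probe set without them. The place of these genes above the range thus rests on shared probes. CDHR5, a protocadherin of the brush border, had a mean of 6.54 and lay close to the edge of the range. Probe sets differ in how brightly they report the same amount of RNA, so these signals give no order of abundance between genes, and a signal in the range does not show that a gene is silent. A change of a gene near background is understated.

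**Figure D1:**
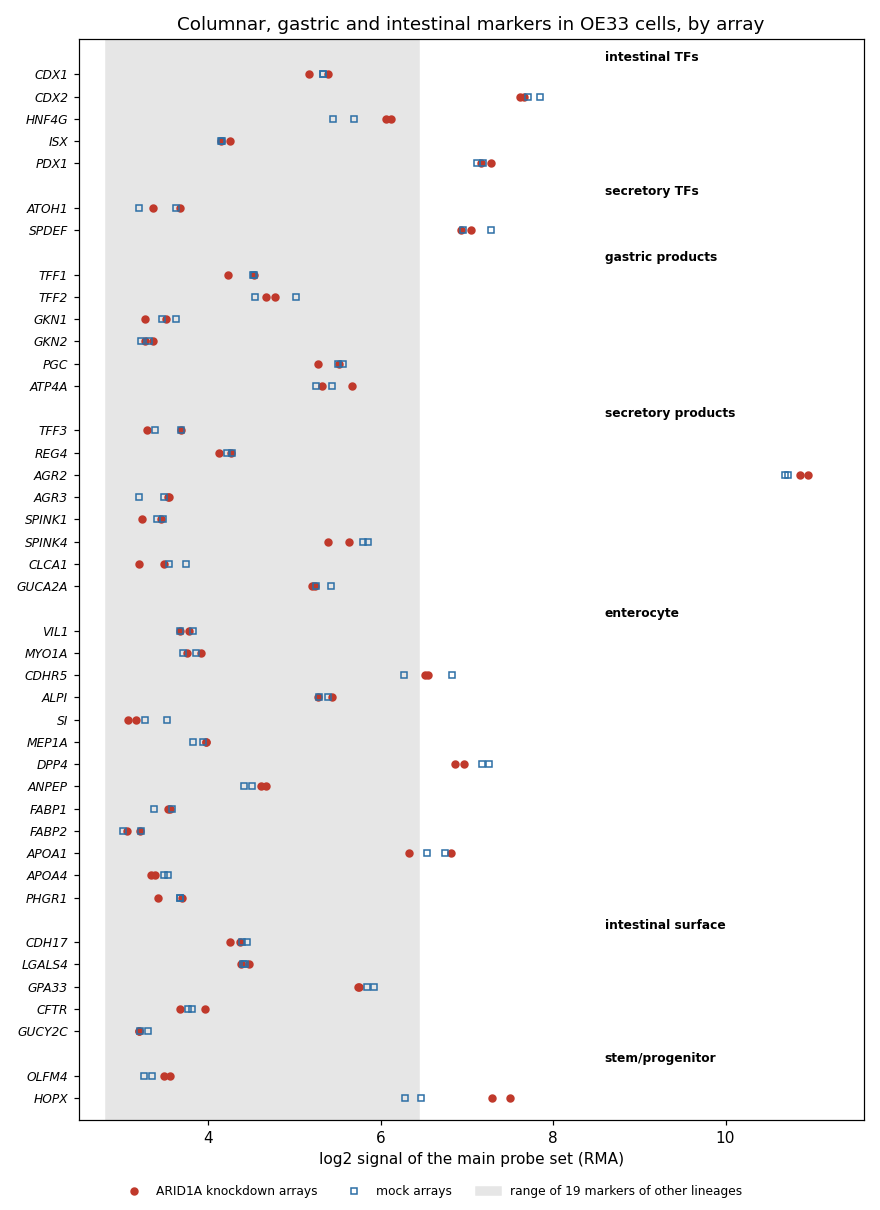
Log2 signal of the main probe set of each of the 41 markers in the 2 ARID1A knockdown arrays (filled red circles) and the 2 mock arrays (open blue squares), with rows grouped by role. The grey band is the range of 19 markers of other lineages, 2.81 to 6.44, in which 33 of the 41 markers lie, and AGR2 is the brightest.

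Set against all genes, the 41 markers differed between knockdown and mock cells about as often as genes at large. HOPX made 1 of 41 past the test (2.44%, against 0.403% of all genes), higher in the knockdown cells as 0.188% of all genes were, and 0 markers were past it and lower, against 0.215% of all genes. At an unadjusted p under 0.05 there were 7 markers (17.1%, against 17.0% of all genes). Among these, 4 were higher (HNF4G, AGR2, OLFM4 and HOPX), or 9.76%, against 9.76% of all genes, and 3 were lower (SPINK4, SI and DPP4), or 7.32%, against 7.25%. The arrays of the groups did not overlap in 17 markers (41.5%), against 49.4% of all genes. In 7 of them the knockdown arrays were higher (17.1%, against 25.8% of all genes) and in 10 lower (24.4%, against 23.6%). By sign alone 18 were higher (43.9%, against 48.6%). The median difference was -0.045 over the markers and -0.0043 over all genes, and the median size of a difference, sign set aside, was 0.11 over the markers and 0.099 over all genes.

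**Figure D2:**
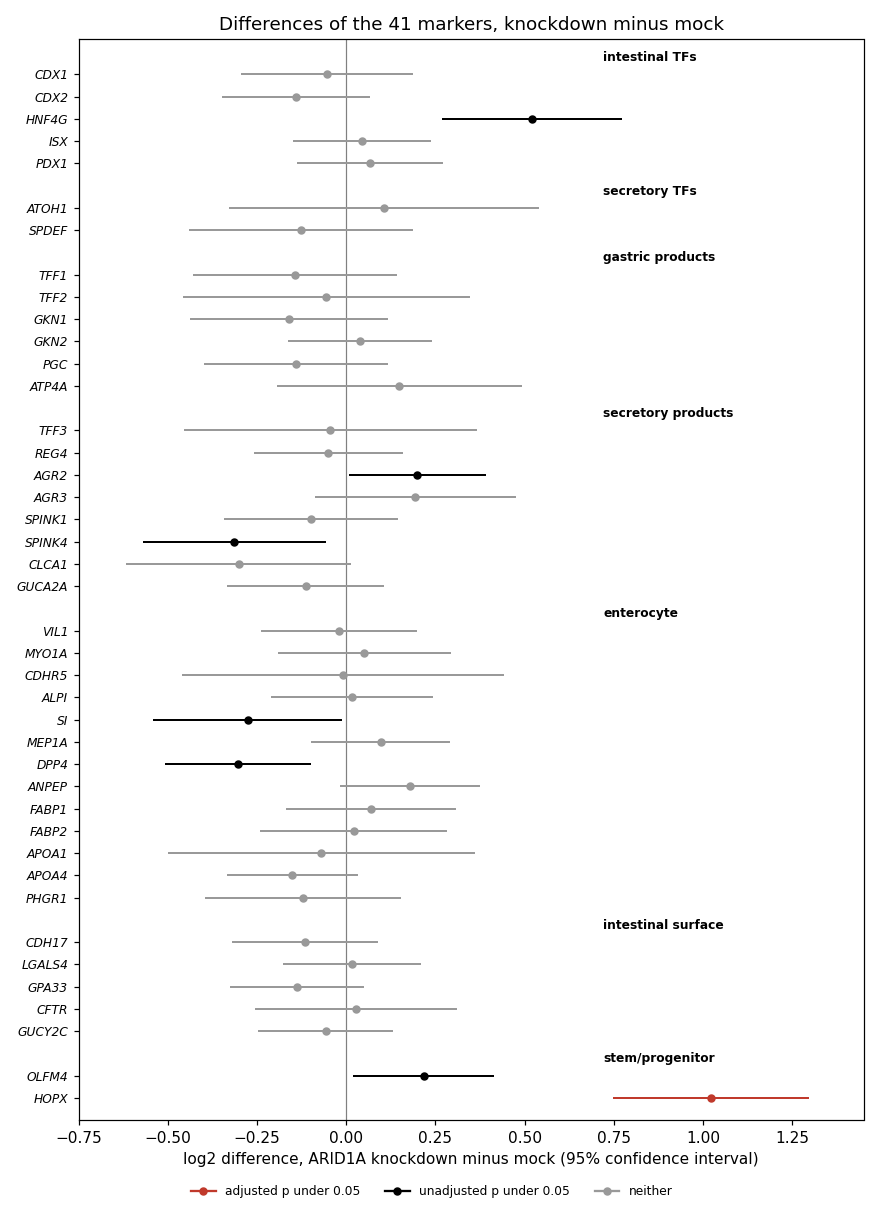
Log2 difference, ARID1A knockdown minus mock, of each of the 41 markers with its 95% confidence interval from limma, in rows grouped by role. HOPX is the marker past the adjusted threshold (red), 4 markers, HOPX among them, have a positive and 3 a negative difference with an unadjusted p below 0.05, and the intervals of the others include 0.

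HOPX, an atypical homeodomain protein that binds no DNA itself and marks a reserve stem cell population in the mouse intestine, was 2.03-fold higher in the knockdown cells. Its main probe set was at 7.29 and 7.51 in the knockdown arrays, against 6.47 and 6.29 in the mock arrays. Both knockdown arrays lay above both mock arrays. The log2 difference was 1.02 (95% confidence interval 0.75 to 1.29, adjusted p = 0.0499), with means of 7.40 ± 0.152 in knockdown and 6.38 ± 0.128 in mock cells (SD, n = 2 each). A second probe set gave 7.27 and 7.52 in the knockdown arrays, against 6.29 and 5.82 in the mock arrays. Its difference was 1.34 (adjusted p = 0.0608). The dimmest probe set gave 6.91 and 7.09 in the knockdown arrays, against 5.96 and 5.56 in the mock arrays, with a difference of 1.24 (adjusted p = 0.0525). All 3 had the same sign and no overlap between groups, and just the first passed. All 3 end in _x_at, so their probes can match other sequences, and HOPX had no probe set free of that limit. The rise passed in 5 other settings (limma adjusted p = 8.20e-04 to 0.0402). It was not called with the replicate number as a block (adjusted p = 0.255), nor with those numbers crossed between groups. In both block settings 0 probe sets passed, that of ARID1A included, so they say nothing about HOPX alone. With 1 array left out the difference of HOPX was 0.91 to 1.13. More cells with HOPX RNA and more HOPX RNA per cell cannot be told apart in RNA from whole cultures.

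OLFM4, a secreted glycoprotein of human intestinal stem cells at the crypt base, had signals within the range of the other lineages. Its main probe set was at 3.56 and 3.49 in the knockdown arrays, against 3.35 and 3.26 in the mock arrays. The groups did not overlap, but the difference of 0.22 did not pass (unadjusted p = 0.0342, adjusted p = 0.266). The second probe set of OLFM4, which shares no probes with other sequences, had a difference of -0.05, opposite in sign.

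Of the 5 intestinal transcription factors, 0 passed, against 0.403% of all genes, and 1, HNF4G, had an unadjusted p under 0.05, against 17.0%. HNF4G, a nuclear receptor that acts with HNF4A on enterocyte genes, was at 6.06 and 6.12 in the knockdown arrays, against 5.69 and 5.45 in the mock arrays. The groups did not overlap. The difference was 0.52 (interval 0.27 to 0.77, unadjusted p = 0.00251, adjusted p = 0.111). It passed where the fit let the spread follow the signal (adjusted p = 0.0319), but so did 3209 probe sets, against 156 in the main fit. Its mean signal lay within the range of the other lineages, and its second probe set, at 2.69 to 2.92 on the 4 arrays, had a difference of -0.05. The mean of both probe sets gave 0.24.

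CDX2, the master factor of intestinal identity, lay above the range of the other lineages, at 7.66 and 7.62 in the knockdown arrays, against 7.71 and 7.85 in the mock arrays. The knockdown arrays were slightly lower without overlap, with a difference of -0.14 (interval -0.35 to 0.06, adjusted p = 0.46). Without mock replicate 2 it was -0.07. Its paralogue CDX1 had 5.39 and 5.17 in the knockdown arrays, against 5.33 and 5.33 in the mock arrays, so the groups overlapped. PDX1, a factor of pancreas and duodenum whose gene lies next to CDX2, had 7.28 and 7.16 in the knockdown arrays, against 7.19 and 7.12 in the mock arrays. Its difference was 0.07 (interval -0.13 to 0.27, adjusted p = 0.74), the groups overlapped, and with 1 array left out the difference lay between 0.0054 and 0.13. The second probe set of PDX1, which shares no probes with other sequences, lay within the range of the other lineages. It had 4.65 and 4.55 in the knockdown arrays, against 4.69 and 4.498 in the mock arrays. ISX, an intestine-specific homeobox factor, was dim in all 4 arrays (4.14 to 4.25).

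Neither of the 2 secretory transcription factors passed, against 0.403% of all genes. SPDEF, which completes goblet cell maturation, was at 6.93 and 7.05 in the knockdown arrays, against 6.96 and 7.28 in the mock arrays. These values overlapped, the difference was -0.13 (interval -0.44 to 0.18, adjusted p = 0.674), and all 3 of its probe sets were slightly negative. ATOH1, which commits crypt cells to the secretory fate, ranged from 3.19 to 3.67 over the 4 arrays.

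None of the 6 gastric products passed, against 0.403% of all genes, and none had an unadjusted p under 0.05, against 17.0% of all genes. All 6 had signals within the range of other lineages (means of 3.29 to 5.47). The trefoil peptide TFF1, made by gastric surface cells, had 4.53 and 4.23 in the knockdown arrays, against 4.52 and 4.53 in the mock arrays. TFF2, made by mucous neck cells, had 4.67 and 4.77 in the knockdown arrays, against 4.54 and 5.01 in the mock arrays. Both genes overlapped between groups. Pepsinogen C (PGC) had 5.52 and 5.27 in the knockdown arrays, against 5.51 and 5.56 in the mock arrays, and the proton pump subunit ATP4A had 5.32 and 5.67 in the knockdown arrays, against 5.25 and 5.44 in the mock arrays. The gastrokines GKN1 and GKN2, neighbouring genes, were at 3.23 to 3.63. In all 6 genes the groups overlapped at the main probe set, while they did not in 49.4% of all genes. Among the 5 probe sets of PGC, 3 had a negative and 2 a positive difference. A dimmer one, with shared probes, had a difference of -0.29 (unadjusted p = 0.0145, adjusted p = 0.199) and was lower without overlap. Another dimmer one, without shared probes, was higher without overlap, with a difference of 0.19 (unadjusted p = 0.0542, adjusted p = 0.319).

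Among the secretory products of the intestine, AGR2 lay above the range of other lineages. It is a protein disulfide isomerase of the endoplasmic reticulum that mucin folding needs in mice. Its main probe set stood at 10.96 and 10.86 in the knockdown arrays, against 10.69 and 10.73 in the mock arrays, at the 95.4th percentile of probe sets. Both knockdown arrays were higher than both mock arrays. The difference of 0.20 (interval 0.01 to 0.39) did not pass (unadjusted p = 0.0426, adjusted p = 0.29). It passed where the fit let the spread follow the signal (adjusted p = 0.0374), a setting in which 3209 probe sets passed, against 156. A second probe set was at 8.37 and 8.40 in the knockdown arrays, against 8.06 and 8.003 in the mock arrays (difference 0.36, adjusted p = 0.119). Another had 6.18 and 6.40 in the knockdown arrays, against 6.10 and 6.02 in the mock arrays, with a difference of 0.23 (adjusted p = 0.338). Those 3 probe sets had the same sign and did not overlap, and the dimmest, at 2.98 to 3.13, overlapped.

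AGR3, the paralogue next to AGR2, was at 3.54 and 3.54 in the knockdown arrays, against 3.20 and 3.49 in the mock arrays. Its groups did not overlap, with a difference of 0.19 (adjusted p = 0.46) at a signal within the range of other lineages. SPINK4, a protease inhibitor of goblet cells, had 5.63 and 5.39 in the knockdown arrays, against 5.85 and 5.79 in the mock arrays. Both knockdown arrays were lower than both mock arrays, and the difference of -0.31 (interval -0.57 to -0.06) did not pass (unadjusted p = 0.0235, adjusted p = 0.234). Without knockdown replicate 2 it was -0.19. CLCA1, a secreted goblet cell protein, had 3.49 and 3.20 in the knockdown arrays, against 3.55 and 3.75 in the mock arrays (difference -0.30, adjusted p = 0.322). GUCA2A, the precursor of guanylin, was also without overlap, at 5.24 and 5.20 in the knockdown arrays, against 5.25 and 5.42 in the mock arrays. TFF3, the goblet cell trefoil peptide, had 3.68 and 3.29 in the knockdown arrays, against 3.38 and 3.68 in the mock arrays, so the groups overlapped. REG4 (4.13 to 4.27) and SPINK1 (3.24 to 3.48) overlapped as well. Of the 8 secretory products 0 passed, and at an unadjusted p below 0.05 AGR2 was higher and SPINK4 lower, against 9.76% and 7.25% of all genes.

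Of the 13 enterocyte genes 0 passed, and at an unadjusted p under 0.05 0 were higher, against 9.76% of all genes, and 2 lower, DPP4 and SI, against 7.25%. Counts this small give no direction for the group. DPP4, a brush border peptidase that also cleaves incretin hormones, had 6.86 and 6.96 in the knockdown arrays, against 7.26 and 7.17 in the mock arrays. The knockdown arrays were lower without overlap. The difference was -0.30 (interval -0.51 to -0.10, unadjusted p = 0.0107, adjusted p = 0.178). Its second probe set, which shares no probes with other sequences, had 6.21 and 6.12 in the knockdown arrays, against 6.42 and 6.37 in the mock arrays. That difference was -0.23 (unadjusted p = 0.027, adjusted p = 0.244), of the same sign and without overlap. SI, which encodes sucrase-isomaltase, had 3.17 and 3.07 in the knockdown arrays, against 3.52 and 3.27 in the mock arrays, a difference of -0.28 (interval -0.54 to -0.01, adjusted p = 0.289). The groups did not overlap, at the 6.88th percentile of signals, and its other probe set had a difference of -0.03. Without mock replicate 1 the difference of SI was -0.15.

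The aminopeptidase ANPEP had 4.67 and 4.61 in the knockdown arrays, against 4.51 and 4.41 in the mock arrays, higher without overlap (difference 0.18, adjusted p = 0.339). Meprin A (MEP1A) had 3.98 and 3.98 in the knockdown arrays, against 3.94 and 3.83 in the mock arrays, also without overlap, while its second probe set had a difference of -0.19. APOA4, an apolipoprotein of chylomicrons, had 3.33 and 3.39 in the knockdown arrays, against 3.53 and 3.49 in the mock arrays, lower without overlap (difference -0.15, adjusted p = 0.38). The other 8 enterocyte genes overlapped between groups. Among these, APOA1 had 6.81 and 6.33 in the knockdown arrays, against 6.54 and 6.75 in the mock arrays, and its 6 probe sets, all with probes that can match other sequences, differed in sign. CDHR5 had 6.56 and 6.52 in the knockdown arrays, against 6.27 and 6.82 in the mock arrays, the wide spread of the mock arrays exceeding the difference of -0.0084. The structural genes VIL1 (villin) and MYO1A, a myosin of the microvillus, ranged from 3.68 to 3.92, and the fatty acid carriers FABP1 and FABP2 from 3.01 to 3.58. The alkaline phosphatase ALPI ranged from 5.28 to 5.43, with a difference of 0.27 at its dimmer probe set (unadjusted p = 0.0284, adjusted p = 0.248). PHGR1 ranged from 3.41 to 3.69.

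None of the 5 genes of the intestinal cell surface passed or had an unadjusted p under 0.05, against 0.403% and 17.0% of all genes. GPA33, a surface antigen of intestinal epithelium, had 5.75 and 5.74 in the knockdown arrays, against 5.84 and 5.93 in the mock arrays, lower without overlap (difference -0.14, interval -0.32 to 0.05, adjusted p = 0.425), and the mean of its probe sets gave -0.05. The intestinal cadherin CDH17 had 4.25 and 4.37 in the knockdown arrays, against 4.45 and 4.40 in the mock arrays, and all 4 of its probe sets had a negative difference (-0.03 to -0.13). GUCY2C, the guanylin receptor, was at 3.20 and 3.19 in the knockdown arrays, against 3.21 and 3.30 in the mock arrays. In CDH17 and GUCY2C too the groups did not overlap. That made 3 of the 5 lower without overlap, against 23.6% of all genes, and 0 higher, against 25.8%. So small a count gives no direction for the group. All 5 genes had mean signals within the range of the other lineages (3.23 to 5.82). The lectin LGALS4 (4.38 to 4.48) and the chloride channel CFTR (3.67 to 3.97) overlapped.

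The gastric products had a median difference of -0.098 (6 genes, 2 positive) and the intestinal and secretory markers one of -0.021 (35 genes, 16 positive). The spread between arrays was an SD of 0.051 for the gastric median and 0.072 for the other. With the mean of all probe sets of each gene, the gastric median was -0.052, level with that spread. The gap between the medians was not tested. Without knockdown replicate 1, knockdown replicate 2 or mock replicate 2, the gastric median was -0.024, -0.021 and -0.014. The median over the 35 intestinal and secretory markers was 0.034 without mock replicate 2 and 0.029 without knockdown replicate 2, opposite in sign. The 19 markers of other lineages had a median of -0.082, with 4 positive and 0 past the test. At an unadjusted p under 0.05, 0 of them were higher, against 9.76% of all genes, and 4 lower, against 7.25%. Without overlap, 1 was higher, against 25.8% of all genes, and 9 lower, against 23.6%. The part of this in the lower values of the dim markers was not tested.

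The markers with several probe sets show how far the direction depends on the probe set. Of the 21, 10 had the same sign at every probe set and 11 had mixed signs. HOPX and DPP4 belonged to the first kind. In AGR2 and HNF4G the probe set of opposite sign was dim, at 2.98 to 3.13 and 2.69 to 2.92.

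**Figure D3:**
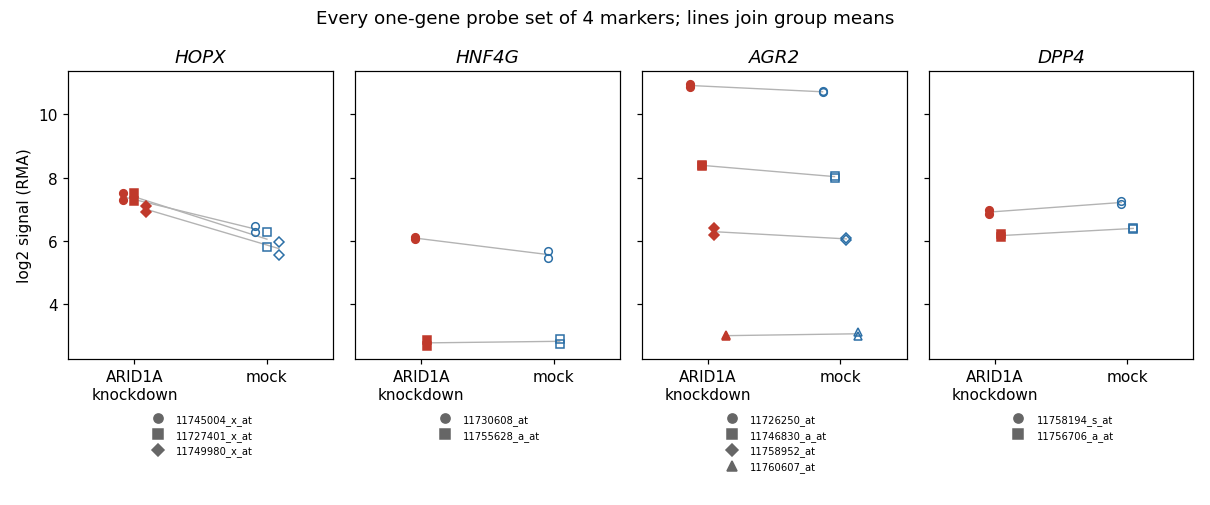
Log2 signal of every one-gene probe set of HOPX, HNF4G, AGR2 and DPP4 in the 2 ARID1A knockdown arrays (left, filled) and the 2 mock arrays (right, open), with lines between group means. The 3 probe sets of HOPX and the 3 brightest of AGR2 are higher and both of DPP4 lower in the knockdown arrays without overlap, and the second probe set of HNF4G does not follow the first.

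A wider set of 50 columnar genes, also chosen with earlier results of these data known, was examined beside the markers. None passed the test, against 0.403% of all genes. At an unadjusted p under 0.05, 6 were higher, against 9.76% of all genes, and 6 lower, against 7.25% of all genes. Of 12 gastric genes 1 was higher and 2 lower at that p, of 20 intestinal genes 2 and 4, and of 18 secretory and stem cell genes 3 and 0. Calls in other settings are given below, and some of those settings call far more probe sets than the 156 of the main fit. The count was 3209 with the trended spread and 2106 without dim probe sets. Among the genes named below, ANXA10, CAPN9, TSPAN8, KRT20 and ASCL2 had mean signals within the range of the other lineages. The main probe sets of SOX2, FABP6, BCAS1 and KLF4 lay above it.

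Among the gastric genes, ANXA10, an annexin of gastric mucosa, had 5.72 and 5.54 in the knockdown arrays, against 6.33 and 6.26 in the mock arrays. Both knockdown arrays were lower, with a difference of -0.67 (interval -0.89 to -0.44, adjusted p = 0.0643), and the call was made in 4 other settings (adjusted p = 0.00837 to 0.0237). SOX2, a factor of foregut and stomach, had 7.63 and 7.80 in the knockdown arrays, against 7.43 and 7.40 in the mock arrays (difference 0.30, adjusted p = 0.198). Its dimmer probe sets had differences of 0.12 and -0.05, and the mean of all was 0.13. The calpain CAPN9, of stomach mucosa, had 5.04 and 4.85 in the knockdown arrays, against 5.14 and 5.28 in the mock arrays (difference -0.26, adjusted p = 0.281). Without knockdown replicate 2 the difference of CAPN9 was -0.17.

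Among the intestinal genes, FABP6, the ileal bile acid carrier, had 7.66 and 7.72 in the knockdown arrays, against 7.18 and 6.84 in the mock arrays. Without overlap, the difference was 0.67 (interval 0.36 to 0.98, adjusted p = 0.105), and the call was made in 3 other settings (adjusted p = 0.00775 to 0.0435). The tetraspanin TSPAN8 had 4.82 and 4.94 in the knockdown arrays, against 4.48 and 4.47 in the mock arrays (difference 0.40, adjusted p = 0.114), and it was called in 1 other setting (adjusted p = 0.0495). KRT20, a keratin of differentiated intestinal cells, was lower without overlap, at 5.29 and 5.46 in the knockdown arrays, against 5.73 and 5.79 in the mock arrays (difference -0.38, adjusted p = 0.141).

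Among the secretory and stem cell genes, BCAS1, which is expressed in goblet cells, had 8.32 and 8.42 in the knockdown arrays, against 7.77 and 7.61 in the mock arrays. The difference was 0.68 (interval 0.46 to 0.90, adjusted p = 0.0616), and the call was made in 5 other settings (adjusted p = 0.00153 to 0.0458). As the mean of its probe sets, the difference was 0.41. Of its 6 probe sets, 4 were higher without overlap (0.51 to 0.71), and 2 had differences of -0.02 and 0.01. KLF4, a zinc finger factor that goblet cell maturation needs in mouse colon, had 10.97 and 11.05 in the knockdown arrays, against 10.54 and 10.48 in the mock arrays. Its groups did not overlap, with a difference of 0.50 (interval 0.31 to 0.69, adjusted p = 0.0753) and of 0.62 at its other probe set (adjusted p = 0.0639). It was called in 4 other settings (adjusted p = 4.32e-04 to 0.0452). ASCL2, a factor of intestinal stem cells, had 6.23 and 6.41 in the knockdown arrays, against 5.91 and 5.94 in the mock arrays (difference 0.39, adjusted p = 0.137), and it was called in 1 other setting (adjusted p = 0.0383).

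**Figure D4:**
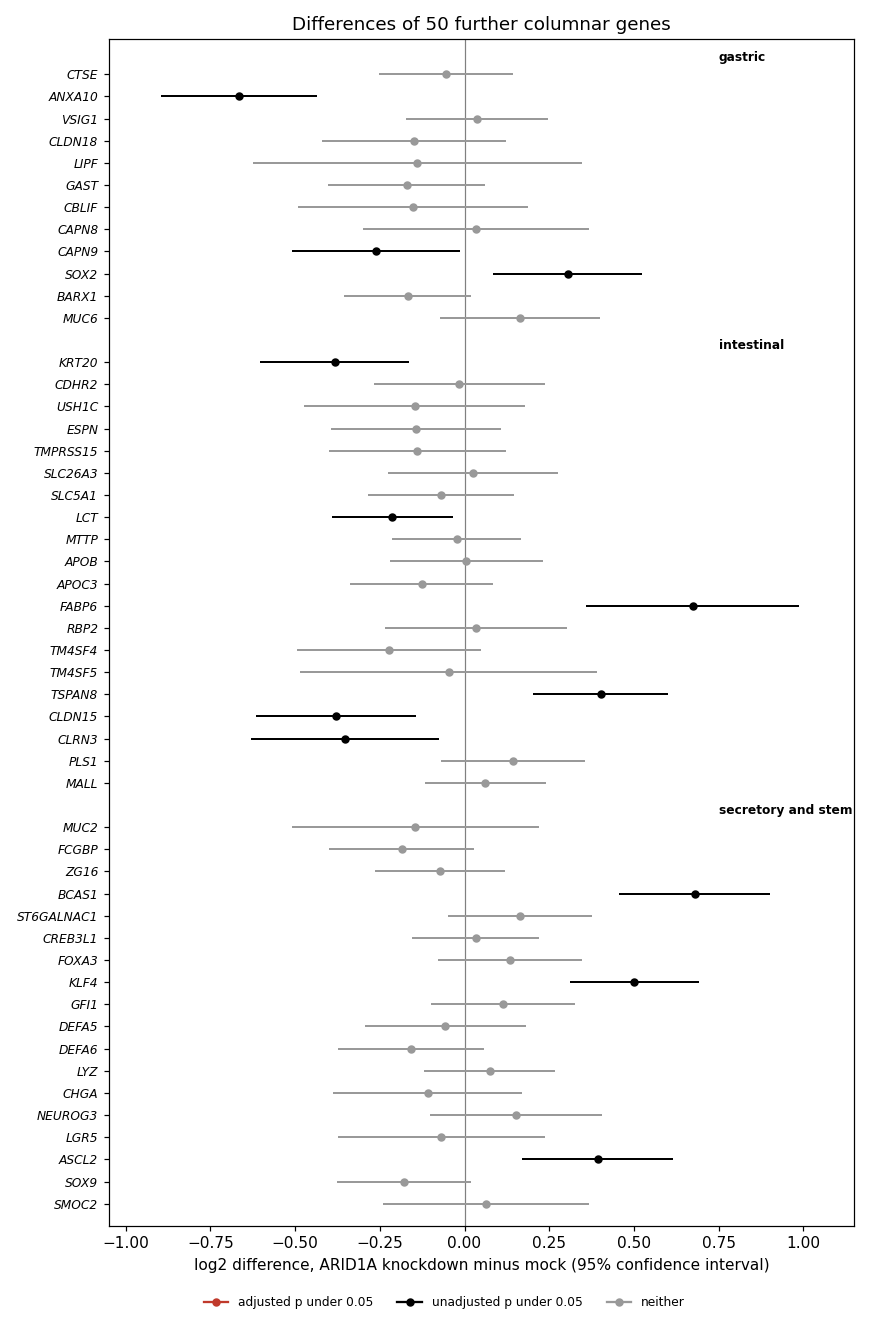
Log2 difference, ARID1A knockdown minus mock, of 50 further gastric, intestinal, secretory and stem cell genes with 95% confidence intervals from limma. None passes the adjusted threshold, 6 genes on each side of 0 have an unadjusted p below 0.05 (black), as 9.76% of all genes do above 0 and 7.25% below it, and ANXA10 and BCAS1 lie farthest from 0 on either side.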

How the data were processed

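Total RNA of 4 OE33 cultures was measured on Affymetrix Human PrimeView arrays, 2 per condition, with groups and replicate numbers taken from the sample titles. The authors deposited log2 values per probe set, made with RMA and Partek per the submitters' processing notes, with no version or role given. RMA sets the arrays to 1 distribution, so a change in total mRNA is not seen, and small signals are compressed. The depth of an array is not a count, and the number of arrays limits precision.

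Of 49372 probe sets, 79 controls were left out. Names came from the platform annotation, checked by Entrez identifier against RefSeq (GRCh38.p14). 44988 probe sets had 1 gene, 1832 several and 2473 none. Knockdown was compared with mock by limma 3.58.1 (lmFit, eBayes) in R 4.3.3, two-sided and without pairing, with Benjamini-Hochberg adjustment over 49293 probe sets. With 2 residual degrees of freedom, standard errors are moderated. An exact permutation test of 2 against 2 arrays cannot go below p = 0.333. The replicates are called biological, but nothing says that they were separate in time, so p-values measure the spread between these arrays. The script was checked on simulated data.

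The markers and lists were chosen with earlier results of these data known. Full statistics are given for markers past the test, at an unadjusted p under 0.05 or among the 10 brightest, for ARID1A, and for the 3 genes with the smallest p in each wider list. Alternatives were the replicate number as a block, median centring, quantile normalization, a filter on dim probe sets, unshared probe sets, gene means over probe sets, a trended spread, and each array left out.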

Additional observations from a re-analysis of the deposited data

How the results depend on the processing

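The count of probe sets past the test, 156, varied widely: 671 with arrays centred on their medians, 297 after quantile normalization, 2106 without dim probe sets, 23 without shared probe sets, 3209 with an intensity trend in the spread, and 0 with a replicate block. With 1 array left out it was 0 to 0, and ARID1A itself was not called, so those settings say nothing about single calls. The count of markers past the test, 1 (HOPX), was 3 with the intensity trend (HNF4G, AGR2 and HOPX). It was 0 without shared probe sets, where HOPX has no probe set, 0 with the replicate block and 0 to 0 with 1 array left out. The deviations of same-numbered arrays had a weak negative correlation (r = -0.202 over probe sets). With the crossed pairing as a block, added after seeing the data, 0 probe sets and 0 markers passed. With 1 array left out, the median difference was -0.084 to 0.034 over the markers, -0.116 to -0.014 over the gastric products and -0.084 to 0.034 over the intestinal and secretory markers. No gastric product was left without dim probe sets, and 8 of the 41 markers were.

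The sign turned for APOA1 with the mean of all its probe sets (0.023) and for OLFM4 without shared probe sets (-0.055). With 1 array left out, it turned for SPDEF (-0.29 to 0.035), APOA1 (-0.31 to 0.17) and CDHR5 (-0.29 to 0.27). ARID1A was -1.07 as the mean of its probe sets, against -1.78 at its main one. HOPX was 0.91 to 1.13 with 1 array left out and 1.20 as the mean of its probe sets. The cause of these changes was not tested. The replicate block leaves each difference as it is and changes its error alone; it removed the calls of ARID1A (adjusted p = 0.217) and HOPX (adjusted p = 0.255).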

Other observations

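Markers of squamous epithelium, the lining that columnar epithelium replaces in Barrett's oesophagus, were measured beside the columnar ones, 7 of 8 listed, with TP63 not analysed here. None passed the test, and at an unadjusted p under 0.05 3 were higher and 0 lower, against 9.76% and 7.25% of all genes. SPRR3, a protein of the cornified envelope, had 6.66 and 6.72 in the knockdown arrays, against 6.08 and 5.93 in the mock arrays (limma adjusted p = 0.0561). Involucrin (IVL) had 7.62 and 7.58 in the knockdown arrays, against 7.37 and 7.32 in the mock arrays, and the suprabasal keratin KRT13 had 9.43 and 9.50 in the knockdown arrays, against 9.26 and 9.16 in the mock arrays. In these 3 genes the groups did not overlap, nor did they in the dimmer DSG3 (difference 0.06). That made 4 of the 7 genes higher without overlap, against 25.8% of all genes, and 0 lower, against 23.6%. The basal keratins KRT5 and KRT14 overlapped, with differences of 0.14 and 0.06, as did KRT4, with one of -0.03. The median difference over the 7 genes was 0.14. SPRR3, DSG3, KRT5 and KRT4 had mean signals within the range of the other lineages. All 3 probe sets of KRT13 had the same sign, and 1 of them had a limma unadjusted p under 0.05.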
